A study of Mus musculus with 6 samples.

Results

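Skeletal Gla proteins are small secreted proteins whose glutamates are carboxylated with the help of vitamin K, and 7 genes of this system were followed here: the Gla protein genes Mgp, Ucma, Bglap and Bglap2, and the enzyme genes Ggcx, Vkorc1 and Vkorc1l1. They were taken by gene symbol from the 24346 symbols of the deposited tables, and all 7 passed the filter of a mean of at least 1 FPKM that left 14766 genes for testing. FPKM is a fragment number scaled to transcript length and library depth, so levels can be set side by side between genes. The tissue was the nasomaxillary complex, the skeletal and soft tissue block of the nose and upper jaw, of mouse embryos at E17.5. The 3 control libraries were Pth1r f/f, that is, homozygous for a floxed gene of the receptor for parathyroid hormone and its related protein, and the 3 mutant libraries were Wnt1-Cre:Pth1r f/f. Wnt1-Cre recombines floxed genes in neural crest cells and their descendants, so other cells of the dissection keep the floxed gene intact, and because the controls have no Cre, effects of the transgene and of the deletion cannot be told apart. No treatment was given. The labels do not say how many embryos or litters the libraries came from, so the p-values cover the variation among these 6 libraries, which may be technical.

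Carboxylation turns chosen glutamates into gamma-carboxyglutamate, which binds calcium and lets these proteins attach to mineral. The carboxylase, encoded by Ggcx, uses reduced vitamin K and leaves vitamin K epoxide, which the reductases encoded by Vkorc1, the target of warfarin, and its relative Vkorc1l1 recycle. Matrix Gla protein (Mgp) keeps cartilage and artery walls from calcifying. Ucma encodes the Gla-rich protein of upper growth plate cartilage, and Bglap and Bglap2 encode osteocalcin, made by mature osteoblasts. In people, inherited loss of MGP and exposure to warfarin before birth both cause calcified nasal cartilage and a short midface.

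The genes lie on 5 chromosomes in GRCm38. Mgp spans chromosome 6, 136872435 to 136875823, on the minus strand, and Ucma spans chromosome 2, 4976122 to 4985748, on the plus strand. Bglap (88383501 to 88384464) and Bglap2 (88377736 to 88378699) are neighbours on the minus strand of chromosome 3, with 4801 bases between them. The third copy, Bglap3 (88368616 to 88372743), follows 4992 bases beyond Bglap2. Ggcx is on chromosome 6 (72414308 to 72430712, plus strand), Vkorc1 on chromosome 7 (127893063 to 127895617, minus strand) and Vkorc1l1 on chromosome 5 (129941970 to 129986692, plus strand). The span of Vkorc1 overlaps that of the annotated gene Gm21974, and the span of Vkorc1l1 overlaps those of Gm42986 and Gm43482, each on the same strand. Whether their exons overlap was not examined. Gm21974, Gm42986 and Gm43482 are not among the deposited symbols, so whether their reads add to the Vkorc1 and Vkorc1l1 values is not known.

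The sequence of Bglap shows why its reads are hard to tell from those of Bglap2. The coding sequence below is from the GENCODE M21 transcript, and capitals mark the 4 of 285 bases at which Bglap2 differs.
Bglap: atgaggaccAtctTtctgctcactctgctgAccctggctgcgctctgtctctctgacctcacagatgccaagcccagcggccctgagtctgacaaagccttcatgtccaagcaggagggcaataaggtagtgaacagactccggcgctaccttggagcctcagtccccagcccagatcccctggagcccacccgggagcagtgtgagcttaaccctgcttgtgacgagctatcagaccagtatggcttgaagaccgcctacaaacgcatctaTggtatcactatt
The coding sequences of Bglap and Bglap2 were 98.6% identical, and those of Bglap and Bglap3 95.4%. Of the 50-base windows of the Bglap transcript, 74.7% were also present, letter for letter, in the Bglap2 transcript and 20.5% in that of Bglap3. With windows of 100 bases the shares were 56.3% and 0%. Levels of Bglap and Bglap2 are therefore uncertain one by one and were also tested as their sum.

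Ucma and Bglap, a cartilage and a bone gene with lower mean levels in mutant libraries, are shown with the 250 bases before their start sites (RefSeq, GRCm38.p6), because both hold the core letters bound by RUNX factors. The Ucma stretch is chr2:4975872-4976121 (plus strand) and that of Bglap is chr3:88384467-88384716 (minus strand), each printed in the direction of transcription, with capitals for the motif matches.
Ucma: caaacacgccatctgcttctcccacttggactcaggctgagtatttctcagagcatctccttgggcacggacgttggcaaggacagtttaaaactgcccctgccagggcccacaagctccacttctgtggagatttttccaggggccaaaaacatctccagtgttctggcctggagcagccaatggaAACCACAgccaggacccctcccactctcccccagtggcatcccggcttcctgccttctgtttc
Bglap: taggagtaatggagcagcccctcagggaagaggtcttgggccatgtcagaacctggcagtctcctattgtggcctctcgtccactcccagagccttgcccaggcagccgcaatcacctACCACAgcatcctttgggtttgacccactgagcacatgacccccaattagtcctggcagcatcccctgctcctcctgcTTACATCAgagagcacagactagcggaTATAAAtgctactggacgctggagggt
The motifs searched on both strands were ACCACA (RUNX core), AACCACA (a longer RUNX form that contains the core), TATAAA (a core promoter box) and TTACATCA (the core of an osteocalcin element bound by ATF4). Ucma held the longer RUNX form, beginning 63 bases before its start. Bglap held the core 132 bases, TTACATCA 54 bases and TATAAA 27 bases before its start. In 32851 promoter windows of 300 bases, the core occurred in 16.8%, the longer form in 5.27%, TATAAA in 13.6% and TTACATCA in 1.10%, so single matches of the RUNX core are common. The windows of Ggcx, Vkorc1 and Vkorc1l1 held none of these letters. They were also richer in CpG, with observed over expected ratios of 0.775, 0.546 and 1.01 against 0.177 for Ucma and 0.169 for Bglap, where the median of all windows was 0.384. Promoters of 5 of the 7 genes were in the table used, those of Mgp and Bglap2 not being among them.

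Of the whole series, the low FPKM values put depth at about 8600000 to 14300000 fragments per library, lowest in mutant replicate 3; this is an estimate, not a deposited count. Pth1r measured 75.2, 55.2 and 73.5 FPKM in control and 77.3, 78.4 and 69.7 FPKM in mutant libraries; the labels do not say which part is floxed, so this does not check the genotypes. Xist was at 74.1 to 77.1 FPKM in the controls and mutant replicate 1, and at 0.0263 and 0.0295 FPKM in mutant replicates 2 and 3, which alone carried transcripts of Y-linked genes, so sex differs between the groups. Of the cartilage list used below, Col2a1 stood at 608 to 783 FPKM in control. Of the bone list, Col1a1, chosen after its values were seen, stood at 4065 to 5328 FPKM in control. Col1a1 alone does not mark bone. Of the liver markers Alb, Afp, Apoa1, Ttr and Serpina1a, none exceeded 2.93 FPKM in any library. In bulk tissue, fewer cells of a type and less RNA per cell cannot be told apart.

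All 7 genes had lower means in mutant libraries, where 50.8% of all tested genes had negative changes. By limma over all 14766 genes, Ucma and Mgp fell at a Benjamini-Hochberg adjusted p under 0.05; these 2 of 7 genes stand beside 0.203% of all tested genes called lower and 0.264% called in either direction. In 4 of 7, the Gla protein genes, every mutant value lay under every control value, as was the case for 9.16% of all tested genes (17.0% in either direction). In the 3 enzyme genes the groups overlapped. The median log2 change of the 7 was -0.68, against -0.00197 over all tested genes.

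**Figure D1:**
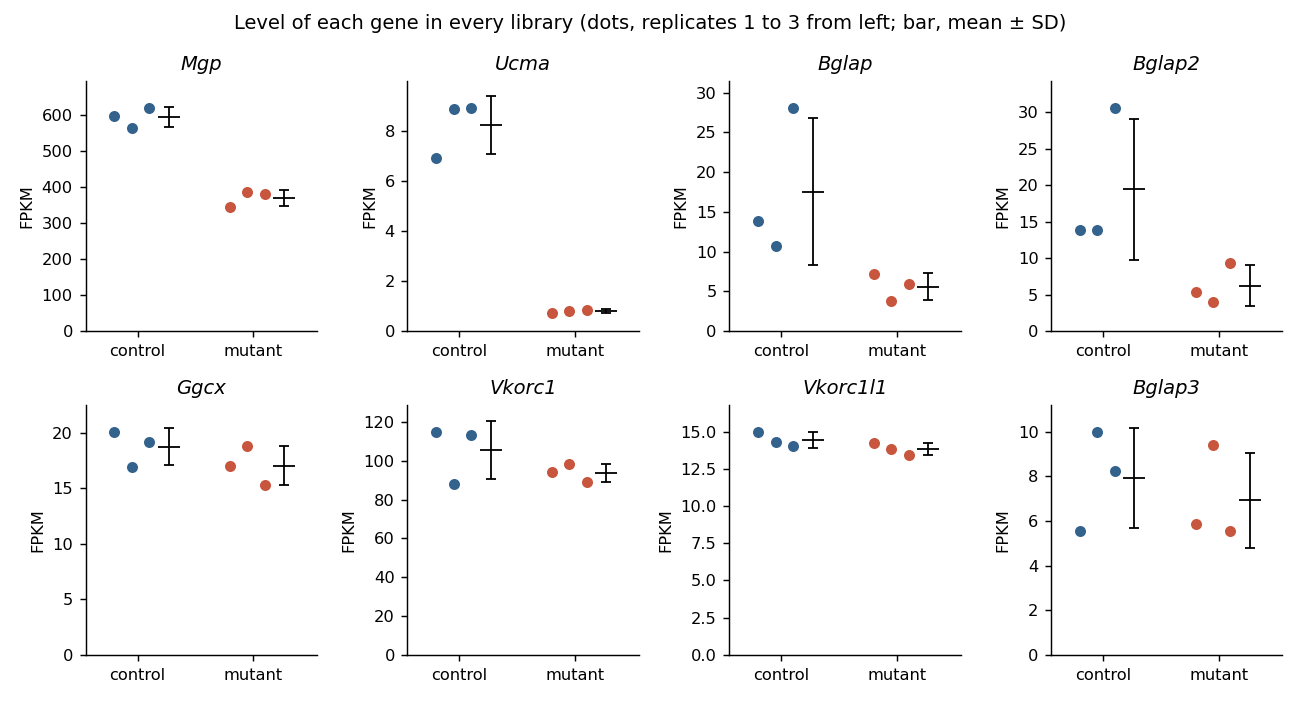
FPKM (linear axes from 0) of the 7 genes and Bglap3 in each of 3 control and 3 mutant libraries, with bars for mean ± SD. The 4 Gla protein genes separate the groups, Ucma falling from 8.24 to 0.800 FPKM, while Ggcx, Vkorc1, Vkorc1l1 and Bglap3 overlap.

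Mgp was by far the most abundant of them. The controls, in replicate order, held 596, 564 and 619 FPKM, and the mutants 344, 386 and 379.6 FPKM. The groups lay far apart relative to their spread, and no mutant library came near a control. The mean went from 593 ± 27.7 FPKM to 370.0 ± 22.8 FPKM (SD, n = 3 each), so that the mutant mean was 62.4% of the control mean. On the log2(FPKM + 1) scale it fell by 0.68 ± 0.0645 (SE; limma adjusted p = 0.0121), and its p ranked 14 of all tested genes. Mgp ranked between 110 and 114 by level among all symbols in control libraries and between 148 and 172 in mutant libraries, so it stayed among the most abundant messages. Its call was lost without control replicate 1 (limma adjusted p = 0.0581) and without control replicate 3 (0.0635). The call was also lost with sex as a covariate (log2 change -0.78). That fit sets mutant replicate 1 alone, the only female mutant, against the controls, so it does not adjust the other mutants for sex.

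Ucma showed the steepest fall of the 7. Control libraries held 6.91, 8.87 and 8.92 FPKM, and mutant libraries 0.717, 0.817 and 0.865 FPKM. Every mutant library lay under 1 FPKM, and the ratio of control to mutant means was 10.3. Given the longest Ucma transcript of 847 bases, these levels correspond to an estimated 75 to 107 fragments per control library and 6 to 8 per mutant library. The log2 change of -2.35 ± 0.11 (SE, limma adjusted p = 0.000567) understates the fall, because 1 FPKM is added before the logarithm; with 0.1 FPKM added it was -3.21. Only Col10a1 had a smaller p among all tested genes. Ucma was called in all 16 alternatives that tested it (limma adjusted p from 0.000193 to 0.0173).

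Relative to their means, osteocalcin transcripts varied most between libraries of the same group. For Bglap the controls stood at 13.9, 10.7 and 28.1 FPKM and the mutants at 7.20, 3.75 and 5.88 FPKM. For Bglap2 they stood at 13.9, 13.8 and 30.6 FPKM and at 5.35, 3.94 and 9.36 FPKM. Control replicate 3 stood far above the other controls for both copies, and the lowest control stayed above the highest mutant. Summed over both copies, osteocalcin measured 27.9, 24.5 and 58.7 FPKM in control and 12.5, 7.69 and 15.2 FPKM in mutant. The mean of the sum was 37.0 ± 18.8 FPKM in control and 11.8 ± 3.83 FPKM in mutant (SD, n = 3 each), a ratio of 3.13. The log2 change of the sum was -1.51 ± 0.35 (SE, 95% interval -2.33 to -0.68), which did not pass the threshold (limma adjusted p = 0.210). Taken one by one, Bglap changed by -1.41 and Bglap2 by -1.48 (limma adjusted p of 0.233 and 0.234). Their unadjusted limma p-values were 0.00420 and 0.00428, where 11.3% of all tested genes had one under 0.05. Without control replicate 3 the change of the sum was -1.13.

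Bglap3, the third copy, did not share that separation. Its controls, at 5.53, 10 and 8.25 FPKM, overlapped its mutants, at 5.85, 9.38 and 5.54 FPKM. Its log2 change was -0.17 (95% interval -0.73 to 0.38, limma adjusted p = 0.835). The difference between its change and that of Bglap was not tested. Bglap made up 43.6% to 50% of the Bglap and Bglap2 sum in control libraries and 38.6% to 57.4% in mutant libraries. How reads that match both copies were assigned is not given, so these shares do not show the true balance.

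No enzyme gene of the cycle was called, and all 3 overlapped between groups. Ggcx, the carboxylase, measured 20.1, 16.9 and 19.2 FPKM in control and 17.0, 18.8 and 15.3 FPKM in mutant. Its log2 change was -0.13 with a 95% interval of -0.35 to 0.08 (limma adjusted p = 0.643), which spans 0.787 to 1.06 times control on the FPKM + 1 scale. Vkorc1, the reductase that warfarin blocks, measured 115, 88.1 and 113 FPKM in control and 94.1, 98.2 and 88.8 FPKM in mutant. Control replicate 2 was the lowest of all 6, and the log2 change was -0.16 (95% interval -0.40 to 0.09, limma adjusted p = 0.624). Vkorc1l1, the paralogous reductase, was the steadiest gene of the 7, at 15, 14.3 and 14.0 FPKM in control and 14.2, 13.8 and 13.4 FPKM in mutant. Its interval was the narrowest, -0.18 to 0.07 around a log2 change of -0.06 (limma adjusted p = 0.761). These p-values do not show that the levels were alike, only that changes beyond the intervals were not seen.

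**Figure D2:**
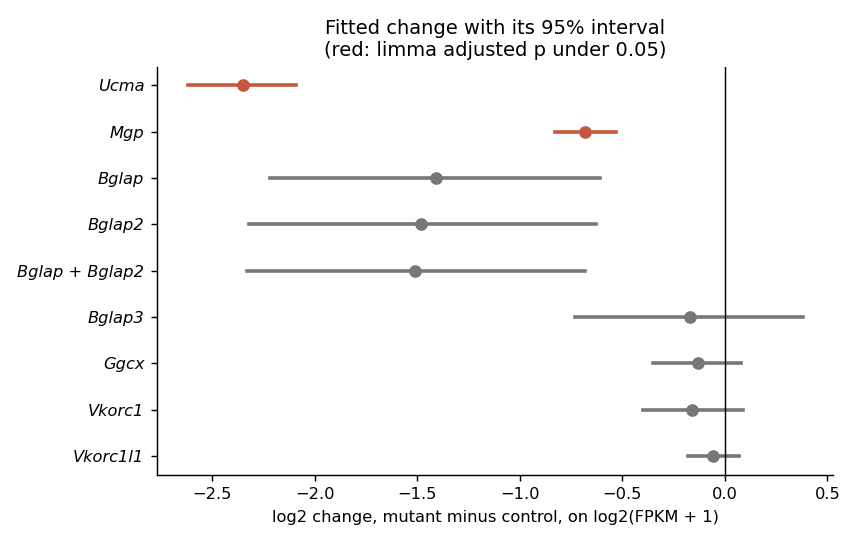
Fitted log2 change (mutant minus control, on log2(FPKM + 1)) of each gene and of the Bglap and Bglap2 sum, with its unadjusted 95% interval. Ucma at -2.35 and Mgp at -0.68 passed the adjusted threshold; the wide osteocalcin intervals exclude 0 but did not pass after adjustment.

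Ordered by control level, Mgp (593 FPKM) stood first and Vkorc1 (105 FPKM) next. Bglap2, Ggcx, Bglap and Vkorc1l1 followed at 19.4, 18.7, 17.6 and 14.4 FPKM, within reach of each other given osteocalcin's spread, and Ucma came last at 8.24 FPKM. In mutant libraries the order was Mgp (370.0), Vkorc1 (93.7), Ggcx (17.0), Vkorc1l1 (13.8), Bglap2 (6.22), Bglap (5.61) and Ucma (0.800 FPKM). Both osteocalcin copies thus had means among those of the enzymes in control and lay under every enzyme in every mutant library. Mgp made up 90.2% to 94.5% of the summed FPKM of the 4 Gla protein genes in control and 95.9% to 97.8% in mutant. The sum itself was 638 ± 45.1 FPKM in control and 383 ± 22.0 FPKM in mutant (SD, n = 3 each). Per unit of Ggcx, the summed Gla protein level was 31.4, 35.3 and 35.8 in control and 21, 21 and 25.9 in mutant. Vkorc1 stood at 5.20 to 5.89 times Ggcx in control and 5.24 to 5.81 times in mutant, so the balance of reductase to carboxylase messages overlapped between the groups.

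Many cartilage genes were lower in mutant libraries, so Ucma and Mgp were set against them within each library. The list held 15 matrix genes and the chondrocyte transcription factor genes Sox9, Sox5 and Sox6. Of these 18 cartilage genes, 17 had negative changes and 8 were called lower (median log2 change -1.18). Over all tested genes, 50.8% had negative changes and 0.203% were called lower. The list was chosen with earlier results of these data known, so this contrast is not separate support. Among the 8 were Epyc, Matn1, Lect1 and Acan, which encode epiphycan, matrilin 1, chondromodulin and aggrecan. The mean log2 level of this list was 5.86, 5.72 and 5.93 in control and 4.47, 4.43 and 5.0 in mutant. Ucma minus the list mean was -2.88, -2.42 and -2.62 in control and -3.69, -3.57 and -4.11 in mutant, a difference of -1.15, so Ucma was lower relative to the list mean in every mutant library. With 1 FPKM added, the log2 change was -2.68 for Matn1 and -2.20 for Lect1, against -2.35 for Ucma. Without that addition Ucma fell more steeply than any gene of the list. Its ratio of control to mutant mean FPKM was 10.3, against 6.55 for Matn1, the largest of the list, and 4.63 for Lect1. Mgp minus the list mean was 3.36, 3.42 and 3.35 in control and 3.96, 4.16 and 3.57 in mutant, a difference of 0.52 in the opposite direction. With the 15 matrix genes alone, a comparison added after the data were seen, the differences were -0.98 for Ucma and 0.70 for Mgp, and the groups again did not overlap. Mgp minus Ucma was 6.24, 5.84 and 5.97 in control and 7.65, 7.74 and 7.67 in mutant, a difference of 1.67. Osteocalcin minus the mean of 12 osteoblast and bone genes was -2.69, -2.47 and -1.73 in control and -3.59, -4.06 and -3.36 in mutant, a difference of -1.37. In each of these 4 measures the groups did not overlap, and each had a two-sided exact permutation p of 0.10, the smallest that 3 against 3 allows, and 0.10 after adjustment over the 4.

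**Figure D3:**
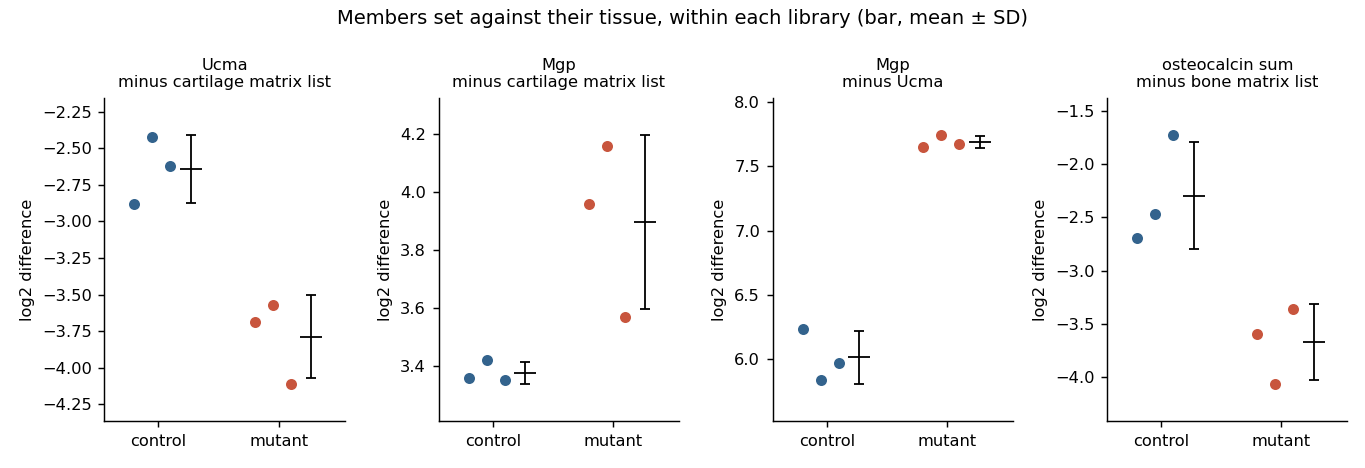
Difference in log2(FPKM + 1) between a gene and the mean of its tissue list, or between Mgp and Ucma, in each library, with mean ± SD (axes do not start at 0). Ucma and osteocalcin stand lower against their tissue lists in mutant libraries (differences of -1.15 and -1.37), whereas Mgp stands higher by 0.52.

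In these 12 osteoblast and bone genes, 10 changes were negative, none was called and the median log2 change was -0.25. Over all tested genes, 0.264% were called. Ifitm5, a membrane protein gene of osteoblasts, measured 112 ± 17.6 FPKM in the controls against 83.9 ± 3.99 FPKM in the mutants. Mepe, a matrix phosphoglycoprotein gene of osteocytes, measured 0.690 ± 0.300 and 1.76 ± 0.250 FPKM (limma adjusted p of 0.284 and 0.191, SD, n = 3 each). Spp1, which encodes osteopontin and was chosen after its values were seen, measured 1146, 752 and 1488 FPKM in control and 775, 587 and 862 FPKM in mutant, overlapping between the groups. Of 7 hypertrophic chondrocyte genes 4 had negative and 3 positive changes, with a median log2 change of -0.05. Only Col10a1 was called, rising from 1.26 ± 0.0371 to 64.4 ± 11.5 FPKM, the collagen of hypertrophic cartilage being one of the 0.0610% of tested genes called higher. In the same list Mmp13 and Scin, a gene of an actin-severing protein chosen after its values were seen, had lower values in every mutant library without passing, with means of 76.2 and 37.7 FPKM for Mmp13 and of 4.89 and 2.95 FPKM for Scin (limma adjusted p of 0.318 and 0.219). Ihh and Mef2c, chosen likewise, had higher values in every mutant library (limma adjusted p of 0.278 and 0.211). Of all tested genes, 9.16% were lower and 7.85% higher in every mutant library than in every control.

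Of 10 transcription factors known to act on the osteocalcin gene none was called, with 8 negative changes and a median log2 change of -0.15. Over all tested genes, 0.264% were called. Vdr, the vitamin D receptor, which represses osteocalcin in mice, measured 14.5, 10.6 and 14.1 FPKM in control and 20.1, 18.5 and 19.8 FPKM in mutant. Every mutant library lay above every control, as for 7.85% of tested genes, with a log2 change of 0.55 that did not pass (limma adjusted p = 0.160). Atf4 was lower in all mutant libraries, as for 9.16% of tested genes. It stood at 148, 145 and 142 FPKM against 156, 161 and 169 FPKM, but did not pass (limma adjusted p = 0.298). Runx2 and Sp7, the master factors of osteoblasts, chosen after their values were seen, overlapped between groups, with means of 33.5 and 30.3 FPKM for Runx2 and of 74.5 and 65.5 FPKM for Sp7 in control and mutant.

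Among 13 other Gla domain genes, Bglap3 included, 8 were tested, 3 with negative and 5 with positive changes. None was called, where 0.264% of all tested genes were. Gas6, the ligand of the TAM receptor kinases, averaged 32.9 ± 1.58 FPKM in the controls against 37.5 ± 5.68 FPKM in the mutants (limma adjusted p = 0.584). Prrg3, a transmembrane Gla protein gene, measured 10.7 ± 0.463 and 12.2 ± 1.14 FPKM (limma adjusted p = 0.456, SD, n = 3 each). The 5 untested genes, F7, F9, F10, Proc and Proz, encode clotting factors and regulators made mainly in liver, and none exceeded 0.492 FPKM in any library. F2, another clotting factor gene of the list, was tested and stood at 1.70 to 2.89 FPKM. The difference between these genes and the skeletal Gla protein genes was not tested.

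The genes of vitamin K supply and of the receptors gave no calls either, where 0.264% of all tested genes were called. Of 8 supply and reduction genes 7 had negative changes. Calu, which encodes calumenin, an inhibitor of the carboxylase, measured 219 ± 18.8 and 198 ± 11.1 FPKM (SD, n = 3 each). Of 6 receptor genes 4 were tested. Axl, a receptor of Gas6, measured 29.4 ± 2.12 and 35.1 ± 5.38 FPKM, and Gpr37, a proposed receptor of osteocalcin, 5.30 ± 0.301 and 5.60 ± 0.554 FPKM. Gprc6a, a receptor reported to bind osteocalcin, did not exceed 0.0848 FPKM in any library. Of 7 other genes that restrain or shape mineral 5 were tested and none was called; Enpp1, which makes the mineral inhibitor pyrophosphate, measured 19.6, 16.2 and 22.0 FPKM in control and 13.7, 12.4 and 13.4 FPKM in mutant. Its groups did not overlap, as for 9.16% of all tested genes in that direction (log2 change -0.51, limma adjusted p = 0.168). In the same list Fam20c, a kinase gene of secreted mineral proteins, measured 17.1 ± 2.06 and 14.3 ± 1.46 FPKM.

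The genes whose 6 values ran closest to each gene were found by the root mean square difference of their deviations from their own mean, in log2(FPKM + 1). They were picked from these same libraries, so whether they fell or were called largely follows from that choice and is not separate support. Nearest to Ucma were Mfi2 (0.179), Epyc (0.244), Lect1 (0.275), Scrg1 (0.277) and Col2a1 (0.367), against a median of 1.18 over all tested genes. All 5 fell, Mfi2, the gene of melanotransferrin, from 10.9 ± 1.22 to 1.47 ± 0.559 FPKM and Col2a1 from 702 ± 88.3 to 183 ± 67.5 FPKM. Mutant replicate 3 had the highest mutant values of all 5 genes, as it did for Ucma, where it was close to the other mutants. Nearest to Mgp were Scara3 (0.0800), Prelp (0.0815), S100b (0.0857), Mia (0.0930) and Pot1b (0.102), against a median of 0.357. Mia, a secreted protein gene of cartilage, measured 72.2, 74.6 and 73.8 FPKM in control and 40.1, 41.6 and 41.5 FPKM in mutant and fell with a limma adjusted p of 0.000573. Scara3 and S100b also fell (limma adjusted p of 0.0333 and 0.00664), and Prelp, a leucine-rich matrix protein gene, and Pot1b, a telomere protein gene, did not pass (0.0508 and 0.0910).

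**Figure D4:**
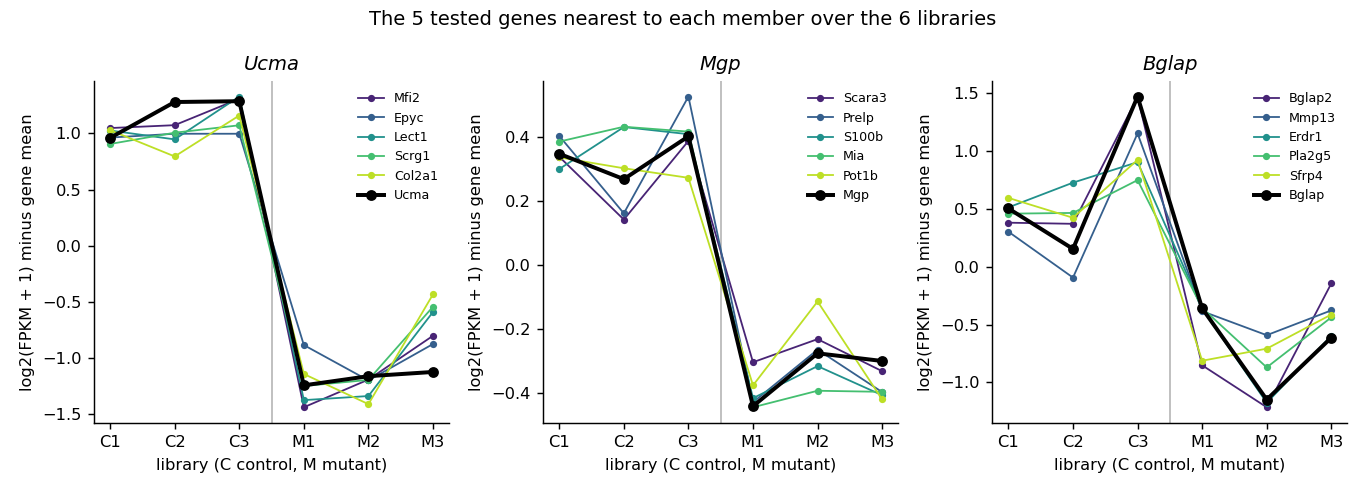
Deviation of log2(FPKM + 1) from each gene's own mean in the 6 libraries, for Ucma, Mgp and Bglap (black) and the 5 tested genes nearest to each; lines only join the values of 1 gene. Companions of Mgp sit at a smaller step between groups than those of Ucma, as follows from how they were picked. The Bglap panel shows the high control replicate 3.

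Nearest to Bglap was Bglap2 (0.297), its near-identical copy, and then Mmp13 (0.306), Erdr1 (0.330), Pla2g5 (0.349) and Sfrp4 (0.369), against a median of 0.845. Mmp13, a collagenase of hypertrophic cartilage and bone, measured 64.0, 48.4 and 116 FPKM in control and 39.4, 34.0 and 39.6 FPKM in mutant. Like osteocalcin, whose values it was picked to match, Mmp13 had its highest value in control replicate 3. Sfrp4, a secreted Wnt antagonist gene, was the only one of these 5 that passed the threshold, with means of 22.4 and 8.54 FPKM (limma adjusted p = 0.0267). For the enzymes, the nearest genes were Tmed3, Gm5801, Gaa, Mmp2 and Papd7 for Ggcx (0.0198 to 0.0246 against a median of 0.157) and Sphk1, Epha2, Gsg2, Fam114a1 and Crtap for Vkorc1 (0.0280 to 0.0384 against 0.178). None of these 10 was called.

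Marker lists of other tissues in the dissection were also set side by side between the groups, and their part in the results above was not tested. Of the sums given here, only that of skin and oral epithelium did not overlap between the groups. The summed FPKM of 10 skeletal muscle genes was 391 to 646 in control and 584 to 1469 in mutant, with all 10 changes positive and none called; Tnni1 and Myod1 had the smallest p-values (limma adjusted p of 0.247 and 0.265). That of 7 skin and oral epithelium genes was 557 to 785 in control and 926 to 927 in mutant, none called, with Krt15 at 158 ± 21.4 and 219 ± 4.85 FPKM and Perp at 84.6 ± 15.3 and 118 ± 4.95 FPKM. Smooth muscle and pericyte genes bear on Mgp, which artery walls also express. Their summed FPKM was 255 to 278 in control and 274 to 319 in mutant, 8 of 9 changes were positive and none was called, with Cspg4 at 24.1 and 19.6 FPKM and Notch3 at 24.9 and 28.6 FPKM. Of 6 endothelial genes all had positive changes and none was called, Tek and Tie1 having the smallest p-values (limma adjusted p of 0.335 and 0.382). In the tendon and fibroblast list 1 of 8 was called, Fmod, from 56.7 to 32.2 FPKM. Over all tested genes, 0.203% were called lower and 0.264% in either direction. Erythroid genes summed to 578 to 1425 FPKM in control and 706 to 1194 FPKM in mutant, with Slc4a1 at 1.15 and 1.48 FPKM and Hbb-bs listed at 0 in mutant replicate 2 only.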

How the data were processed

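RNA of 6 nasomaxillary samples was TRIzol-extracted and sequenced from a stranded mRNA kit, per the labels' protocols. The authors deposited 1 FPKM value per gene symbol and library, per the file headers. Cuffdiff 2.2.1, SAMtools 0.1.18, Bowtie2 2.2.8, TopHat2 2.1.1 and the build mm10 are named, per the submitters' processing notes. Annotation, strand setting and scaling between libraries: not given in the sources used here. Groups follow the genotype label; replicates were numbered in accession order.

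FPKM is not a count, so log2(FPKM + 1) was tested with limma 3.58.1 in R 4.3.3 (eBayes with trend, two-sided, no covariate, 4 residual degrees of freedom), Benjamini-Hochberg adjusted over 14766 genes whose mean reached 1 FPKM. The fit was tested on simulated data. Relative depth was estimated from ratios between libraries of values under 0.15 FPKM. Its absolute scale came from the spacing of low values in 80 genes with a single annotated transcript. Positions and transcripts are from GENCODE M21 and promoters from RefSeq. Exact permutation used scipy 1.17.1.

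The genes and the 17 lists (140 genes, 139 in the files, 124 tested) were chosen with earlier results of these data known. Named genes are the 7 genes and Bglap3, up to 4 called genes per list or else the 2 of smallest p, and the 5 nearest genes; 1 gene that the rule names is not reported here. Alternatives varied the pseudocount (0.1, 0.5), the filter (none, or 5 FPKM), the scaling (3 kinds) and eBayes (no trend, robust), or used library weights, sex as a covariate or 1 library fewer.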

Additional observations from a re-analysis of the deposited data

How the results depend on the processing

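No paired analysis was possible because the labels give no replicate numbers. Over 17 alternatives the changes of all 7 genes stayed negative, Mgp between -0.78 and -0.62 and, in the 16 that tested it, Ucma between -3.21 and -2.30. Mgp lost its call without control replicate 1 (-0.68, limma adjusted p = 0.0581) and without control replicate 3 (-0.65, 0.0635). Its range with 1 library left out was -0.72 to -0.63. The call was also lost with sex as a covariate (-0.78). With that covariate, every change is that of mutant replicate 1 alone, the only female mutant, against the controls. Of the 7 genes 2 were called, and 1 with a mean of at least 5 FPKM, which leaves Ucma untested, and with sex as a covariate. The number was 1 to 2 with 1 library left out. Neither osteocalcin copy, nor their sum (-1.74 to -1.13), nor any enzyme was called in any of the 17. Over all genes limma called 39, but 18 with no filter, 19 without trend, 71 with library weights, 10 with sex as a covariate, and 17 to 44 with 1 library left out. Pseudocounts of 0.1 and 0.5 moved Ucma minus the cartilage list to -1.95 and -1.52 and Mgp minus Ucma to 2.52 and 2.06; no other setting, the cartilage list without its Sox genes included, moved these differences by more than the spread between replicates. No scaling shifted the median change of all genes by more than 0.0109. Depth limits Ucma in mutant libraries, where few fragments are behind each value.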

Other observations

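Control replicate 3 had the highest value of the 6 libraries for Bglap (28.1 FPKM), Bglap2 (30.6 FPKM), Mmp13 (116 FPKM) and Spp1 (1488 FPKM), and the mean log2 level of 12 osteoblast and bone genes was 7.62 there against 7.55 and 7.14 in control replicates 1 and 2. Mutant replicate 3 had the highest cartilage list mean of the mutants (5.0 against 4.47 and 4.43), while its Mgp level of 379.6 FPKM lay between those of the other mutants, 344 and 386 FPKM. The ratio of Mgp to Ucma was 63.6 to 86.3 in control and 439 to 479.6 in mutant libraries.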
